A study of Homo sapiens with 18 samples.

Results

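Interferon-stimulated genes are the genes that a cell switches on when interferon reaches its receptors. Here 39 of them are described in 3 Ewing sarcoma cell lines given a small interfering RNA against FLI1, part of the EWSR1::FLI1 fusion. The 39 were taken by symbol as a fixed list of well-known members of this class, and they are 39 of the 58381 rows of each deposited count table. No measured value was used to choose them, although the list was drawn up with earlier results of these data known. All 39 are annotated as protein-coding in GENCODE release 44 (GRCh38), from which every gene position below is taken.

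Type I interferons signal through a receptor and the JAK1 and TYK2 kinases to a complex that holds STAT2 and IRF9 and binds a DNA element called the ISRE. Interferon-gamma acts through another element, called the GAS, and IRF1 carries part of that signal further. The induced proteins block viruses at many steps: they sense, cut or sequester RNA, bar entry at membranes, starve the cell of nucleotides, or conjugate the ubiquitin-like protein ISG15. Several members feed back on the pathway, such as USP18, which restrains the type I receptor. Some of these genes are also held at a basal level by IRF1 without any interferon being present.

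TC-32, TC-71 and A673 are established lines of Ewing sarcoma, a cancer of bone or soft tissue in the young that is driven by a fusion of EWSR1 to the ETS factor FLI1. In each line, 3 libraries came from cells reverse transfected with a control small interfering RNA (siNeg) and 3 from cells given 1 small interfering RNA against FLI1 (siFLI1), both at 20 nM. This makes 18 libraries in 6 groups of 3. Cells without transfection were not analysed here. With 1 small interfering RNA against FLI1, loss of the fusion cannot be told apart from other effects of that RNA. The column names give 48 h for the 12 libraries of TC-32 and TC-71 and no time for the 6 of A673. TC-32 and TC-71 grew in RPMI and A673 in DMEM, and the tables of TC-32 and A673 hold RSEM counts while that of TC-71 holds Subread counts. TC-32 and TC-71 thus differ in counting method besides line, and TC-32 and A673 in medium, library totals and perhaps time. A673 and TC-71 differ in medium, counting method, library totals and perhaps time. Whatever differs within a pair cannot be told apart from the line. Library totals lay between 24102487 and 33669271 counts in TC-32, between 19685354 and 37234528 in TC-71 and between 114564479 and 120993595 in A673. Nothing in the labels says that replicates are separate cultures, so the p-values measure only the spread between these libraries.

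FLI1, whose reads come from the fusion and any intact transcript alike, fell in every line. In CPM (counts scaled to a common library total), its siNeg and siFLI1 libraries held 45.3, 47.7 and 42.8 against 21.7, 22 and 22.6 in TC-32. They held 52, 52.8 and 48 against 17.2, 17.7 and 19.9 in TC-71, and 76.5, 76.8 and 75.4 against 18.3, 17.9 and 17.6 in A673. The log2 fold change of siFLI1 against siNeg was -1.03 in TC-32 (edgeR adjusted p = 1.85e-13, SE 0.064), -1.47 in TC-71 (edgeR adjusted p = 8.88e-18, SE 0.068) and -2.09 in A673 (edgeR adjusted p = 2.02e-16, SE 0.042). The 5 Ewing sarcoma markers summed to between 680 and 752 CPM in the siNeg libraries and to between 169 and 367 in the siFLI1 libraries. One of them, CD99, a gene present on both X and Y, was listed at 0 in TC-71. Markers of leukocytes, plasmacytoid dendritic cells, endothelium and epithelium summed to at most 2.89 CPM per list in any library, and CLEC4C and LILRA4, which define plasmacytoid dendritic cells, were at 0 in all 18. IL3RA, the third marker of those cells and a cytokine receptor chain that other cells also make, rose in TC-32 from 0.126, 0.151 and 0.0842 to 0.728, 0.535 and 0.711 CPM (log2 fold change 2.38, edgeR adjusted p = 4.76e-05, SE 0.468). Its siNeg libraries there lay under the low-count cutoff of 0.382 CPM, so IL3RA was tested in TC-32 only through its siFLI1 libraries. It was not called in A673 (0.05, edgeR adjusted p = 0.88) and was listed at 0 in TC-71. Like CD99, IL3RA is present on both X and Y, so its 0 in TC-71 is not read as absence. In bulk libraries such as these, a change in every cell and a larger change in some cells cannot be told apart.

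After siFLI1, most of the 39 genes were higher, but the response was gene specific rather than uniform. A gene was tested in a line where its counts passed a low-count filter, and it was called where edgeR's quasi-likelihood test gave an adjusted p under 0.05. In TC-32, all 39 were tested, 32 were higher, 1 was lower (USP18) and 6 were not called. In TC-71, 32 were tested, 24 were higher, 5 were lower and 3 were not called. In A673, all 39 were tested, 24 were higher, 6 were lower and 9 were not called. These counts stand against a very broad response to siFLI1: in the order TC-32, TC-71, A673, 41.3%, 36.8% and 35.6% of all tested genes were called higher, while 40.1%, 35% and 35.4% were called lower, so that 81.4%, 71.9% and 71% were called in either direction. Of the tested members, 82.1%, 75% and 61.5% were higher in the 3 lines, in the same order, and 2.56%, 15.6% and 15.4% were lower.

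The size of the change fell in the order TC-32, TC-71, A673. The tested members had a median log2 fold change of 1.34, 0.82 and 0.59 in this order, where that of all tested genes was 0.022, 0.018 and -0.007. A rise of at least 2-fold was called for 25, 15 and 10 members, beside 22%, 14.1% and 13.3% of all tested genes. The only member called at least 2-fold lower was OAS3 in TC-71, where 9.38% of all tested genes were, beside 15.6% in TC-32 and 9.87% in A673. The siNeg and siFLI1 libraries did not overlap for 33, 30 and 30 members, beside 82.6%, 73.8% and 73.6% of all tested genes.

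Some members reached the test only because their siFLI1 libraries were high enough. They were IFI44, IFI44L, RSAD2, HERC5 and EPSTI1 in TC-32, SAMD9L in TC-71 and MX2 in A673, and the counts and medians above include them. The 7 members not tested in TC-71 were MX1, MX2, OAS1, OAS2, XAF1, TRIM22 and EPSTI1, which did not reach the cutoff in all 3 libraries of either group there.

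**Figure D1:**
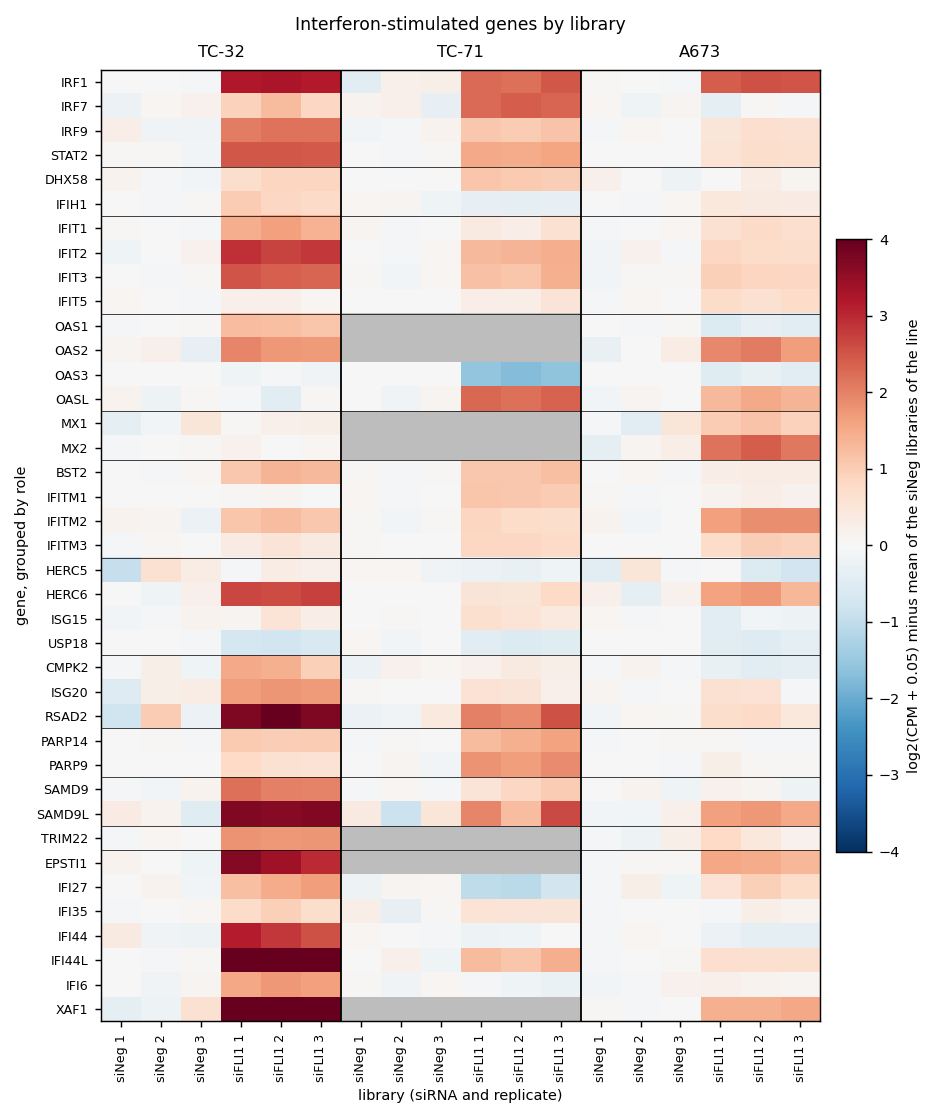
Level of each gene (rows, grouped by role) in each of the 18 libraries (columns), as log2(CPM + 0.05) minus the mean of the siNeg libraries of the same line, with the colour scale ending at -4 and 4 and grey where a gene was not tested. TC-32 has 32 genes called higher and TC-71 and A673 have 24 each, and USP18 turns blue in all 3 lines.

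Seen by library, the same members and counts gave the same order, which is no separate support for it. The median member stood at 1.22, 1.44 and 1.30 (log2, relative to the siNeg mean) in the 3 siFLI1 libraries of TC-32, at 0.85, 0.83 and 0.88 in those of TC-71 and at 0.57, 0.59 and 0.43 in those of A673. The siNeg libraries of the 3 lines stayed between -0.04 and 0.03, and every siFLI1 library lay above every siNeg library of its line. The 7 members not tested in TC-71 were left out of its medians, while members that passed the filter only through their siFLI1 libraries were kept in. Summed over all 39 genes, expression rose from between 567.8 and 582.2 CPM to between 1131 and 1177 in TC-32, and from between 663.2 and 686.9 to between 1188 and 1231 in TC-71. In A673 it rose from between 572.7 and 579.4 to between 705.1 and 745.2 CPM. IFITM3 had the highest level per kilobase of exon in every line in both groups, at 47.0, 78.3 and 27.2 CPM per kb in the siNeg libraries of the 3 lines in that order.

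Of the 32 members tested in all 3 lines, 14 were higher in all 3. They were BST2, HERC6, IFI44L, IFIT1, IFIT2, IFIT3, IFIT5, IFITM2, IFITM3, IRF1, IRF9, RSAD2, SAMD9L and STAT2. That is 43.8% of them, beside 18.9% of the 14233 genes tested in all 3 lines. USP18 alone was lower in all 3, beside 19% of all such genes, and 37.9% of all such genes had the same direction in all 3. Opposite calls in at least 2 lines were found for 5 of the 32, or 15.6% beside 22.7% of all such genes, and for OAS1 among those not tested in TC-71. Over all 39, 30 were higher in at least 1 line and lower in none, 3 were lower in at least 1 and higher in none (HERC5, OAS3 and USP18), and the other 6 were CMPK2, IFI27, IFI44, IFIH1, ISG15 and OAS1. The shares of all genes with these patterns were not computed, so the counts describe the list only. Of the members tested in all 3 lines, IRF1 and SAMD9L alone were at least 2-fold higher in each, and SAMD9L passed the filter in TC-71 only through its siFLI1 libraries.

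**Figure D2:**
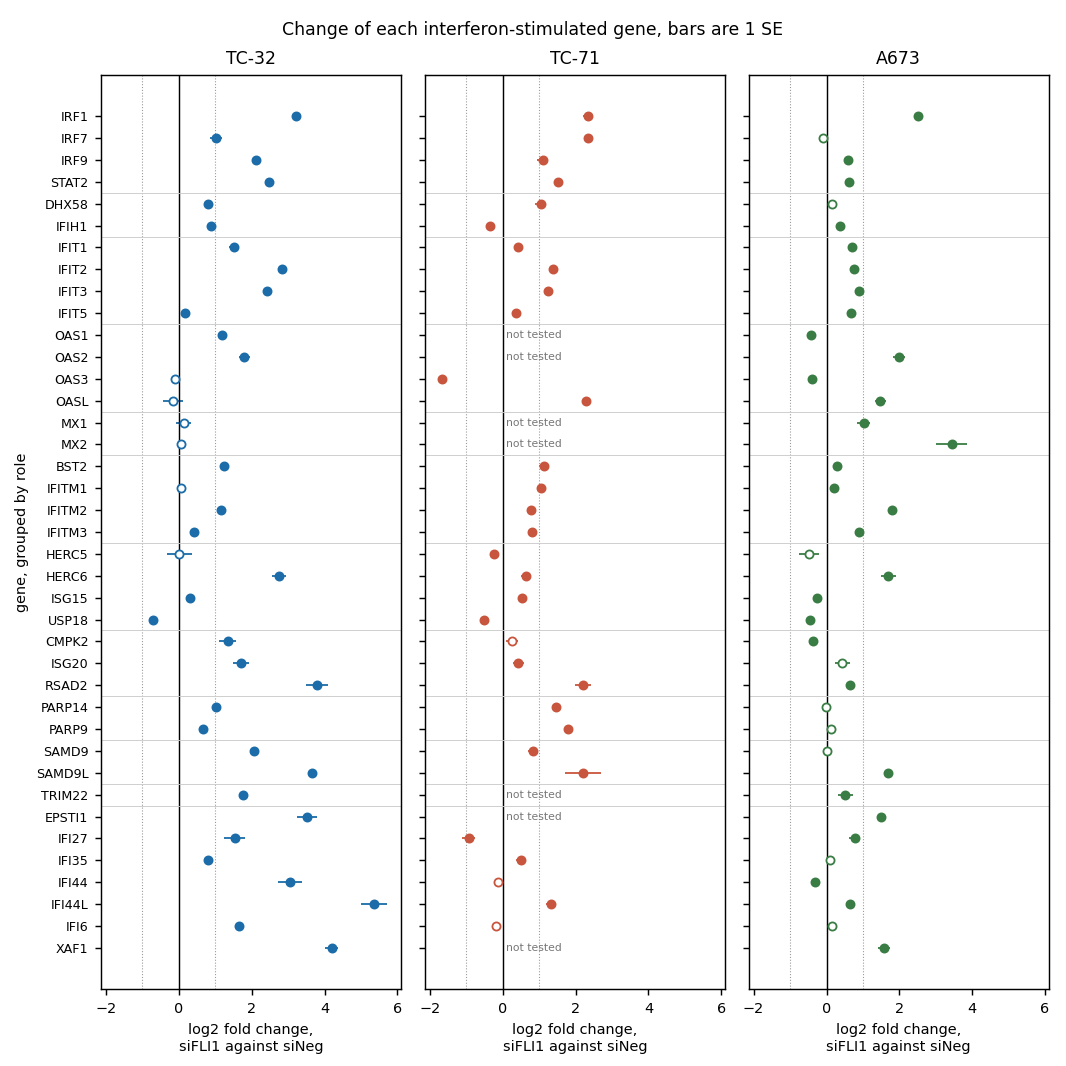
Log2 fold change of siFLI1 against siNeg for each gene (rows, grouped by role) in the 3 lines, with bars of 1 SE, filled points for calls at an edgeR adjusted p under 0.05, open points for genes not called and dotted lines at a 2-fold change. IRF1 and SAMD9L lie beyond the 2-fold line in all 3 panels, while OAS3 lies at -0.11, -1.66 and -0.41.

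Many of the promoters searched held an element that the pathway is known for. The list was made of well-known members of this class, so such an excess is not a result of these data. RefSeq start sites on GRCh38.p14 gave windows of 300 bases (250 before to 50 after the start) for 30 of the 39 members, 40 windows in all. The ISRE core was searched as GAAA, any 2 bases and GAAA, and the GAS as TTCNNNGAA, on both strands, with overlapping matches allowed. An ISRE core was found in 25 of the 40 windows (62.5%), beside 3.57% of 35116 windows of all genes, and a GAS in 11 (27.5%), beside 7.66%. Motifs of ETS binding were also searched, because the fusion holds an ETS domain: CCGGAAGT was in 0 of the 40 windows, beside 4.14% of all, and the paired GGAA motif GGAAGGAA was in 3 (7.5%), beside 3.67%. These are matches of letters, not measured binding.

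The 5 stretches below lie directly upstream of annotated exons and are shown because they set the sequence beside contrasting responses. Capitals mark matches to the ISRE core (GAAA and GAAA, or TTTC and TTTC, 2 bases apart) and to the GAS (TTCNNNGAA), each stretch being written 5′ to 3′ on the strand of its gene.
IFIT1, chr10:89392373-89392545, plus strand, higher in all 3 lines: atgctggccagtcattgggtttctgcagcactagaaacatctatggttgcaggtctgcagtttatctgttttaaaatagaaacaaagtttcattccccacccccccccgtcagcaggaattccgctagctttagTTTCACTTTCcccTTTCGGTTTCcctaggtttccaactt
ISG15, chr1:1013247-1013496, plus strand, higher in TC-32 and TC-71 and lower in A673: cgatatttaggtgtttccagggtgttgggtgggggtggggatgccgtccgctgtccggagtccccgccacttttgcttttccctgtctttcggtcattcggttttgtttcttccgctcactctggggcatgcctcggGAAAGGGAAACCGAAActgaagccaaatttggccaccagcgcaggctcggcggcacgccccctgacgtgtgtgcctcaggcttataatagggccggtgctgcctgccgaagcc
HERC5, chr4:88456869-88457118, plus strand, higher in no line: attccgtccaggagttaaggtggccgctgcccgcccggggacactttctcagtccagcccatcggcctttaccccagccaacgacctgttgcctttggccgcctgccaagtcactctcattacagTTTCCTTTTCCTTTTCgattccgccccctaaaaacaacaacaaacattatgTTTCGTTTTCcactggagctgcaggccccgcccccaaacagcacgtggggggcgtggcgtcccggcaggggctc
IRF1, chr5:132490778-132491023, minus strand, at least 2-fold higher in all 3 lines: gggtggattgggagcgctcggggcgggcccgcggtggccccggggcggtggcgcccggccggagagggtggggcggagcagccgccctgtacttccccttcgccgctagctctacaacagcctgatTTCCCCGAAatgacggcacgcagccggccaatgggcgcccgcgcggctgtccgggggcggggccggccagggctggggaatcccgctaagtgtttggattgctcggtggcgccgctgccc
EPSTI1, chr13:42992272-42992491, minus strand, higher in TC-32 and A673 and not tested in TC-71: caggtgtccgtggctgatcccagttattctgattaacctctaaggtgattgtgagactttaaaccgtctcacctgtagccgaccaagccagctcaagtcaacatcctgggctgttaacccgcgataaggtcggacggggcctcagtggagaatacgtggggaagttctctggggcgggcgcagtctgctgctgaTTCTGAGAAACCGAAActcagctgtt

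IFIT1 shows 2 ISRE cores separated by 3 bases and ISG15 shows 2 that overlap, while HERC5 holds 3, of which 2 overlap. IRF1 holds a GAS and no ISRE core, and in EPSTI1 a GAS and an ISRE core overlap. Members with an ISRE core included genes called in either direction. In TC-32, 17 of the 21 members with an ISRE core were higher, 0 lower and 4 not called, and all 9 members with a window and no core were higher. In TC-71, members with a core split into 13 higher, 4 lower and 2 not called, and those without into 6 higher and 1 not called. In A673, the split was 12 higher, 3 lower and 6 not called with a core, and 6 higher, 2 lower and 1 not called without. The median log2 fold change was lower with a core than without one in every line, at 1.25 and 2.48 in TC-32, 0.53 and 1.09 in TC-71 and 0.37 and 0.63 in A673.

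**Figure D3:**
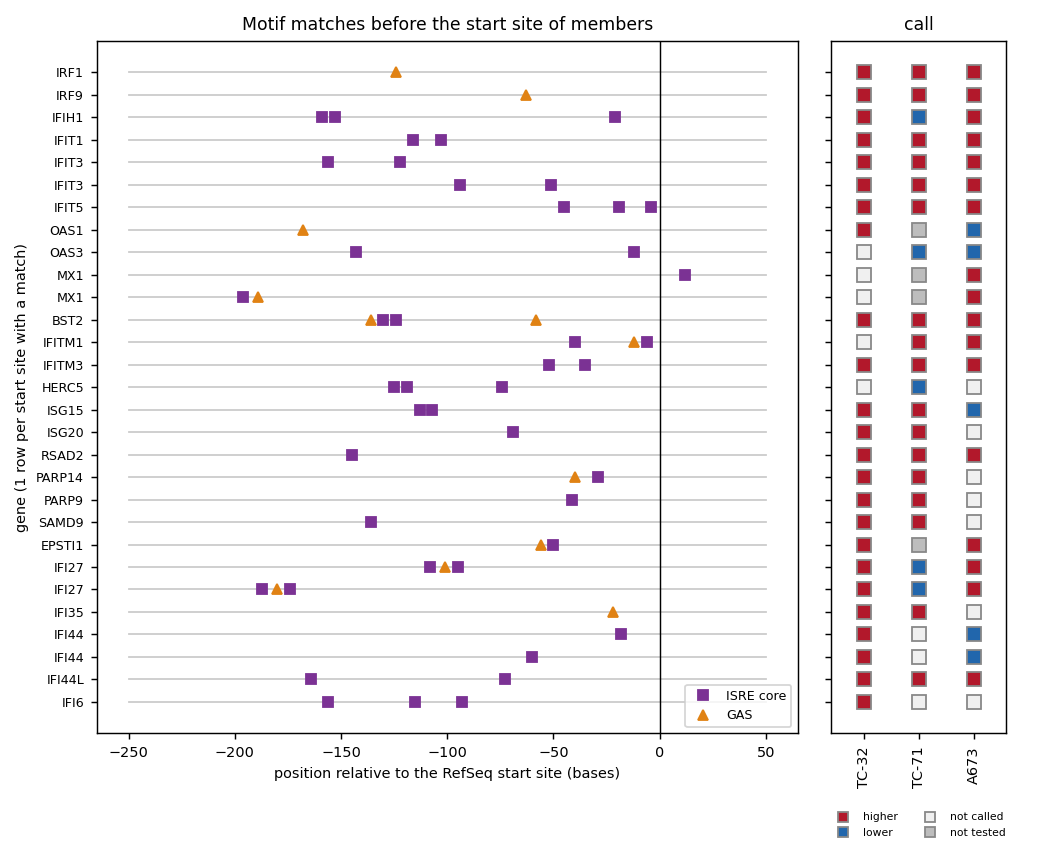
Position of each ISRE core (purple squares) and GAS match (orange triangles) relative to the RefSeq start site at 0 for each start site with a match (1 row each, bases on the horizontal axis), with the call of the gene in each line beside it. ISRE cores precede genes called higher, lower and not called, and HERC5, with 3 of them, was called higher in no line.

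The transcription factors on the list were lower in no line. IRF1, STAT2 and IRF9 were higher in all 3 lines, and IRF7, which drives interferon genes and is itself induced, was higher in TC-32 and TC-71 only. IRF1 (ENSG00000125347.13, chromosome 5, 132440440 to 132508719), the factor that holds basal and interferon-gamma responses, stood at 6.07, 6.03 and 5.77 CPM in the siNeg libraries of TC-32 and at 55.7, 58.2 and 53.5 CPM in the siFLI1 libraries. In TC-71 the values were 1.75, 2.74 and 2.85 against 11.7, 11.3 and 13.6 CPM, and in A673 they were 5.97, 5.62 and 5.58 against 30.9, 33.6 and 32.9 CPM. Every siFLI1 library lay far above every siNeg library of its line, with log2 fold changes of 3.23 (edgeR adjusted p = 6.15e-22, SE 0.076), 2.34 (edgeR adjusted p = 9.58e-15, SE 0.14) and 2.5 (edgeR adjusted p = 7.17e-16, SE 0.056). The rise in TC-32 exceeded that in A673 by 0.75 (edgeR adjusted p = 9.46e-07, SE 0.117) and that in TC-71 by 0.88 (edgeR adjusted p = 2.91e-05, SE 0.166). A673 and TC-71 differed by 0.13 (edgeR adjusted p = 0.509, SE 0.151). IRF1 overlaps genes of the opposite strand over 22.9% of its exon bases, mainly IRF1-AS1, and how the counting used strand is not stated.

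STAT2 (ENSG00000170581.13, chromosome 12, 56341597 to 56360203), the subunit that distinguishes the type I complex, rose from 31.7, 31.5 and 28.1 CPM to 169, 172 and 168 CPM in TC-32. In TC-71 it rose from 59.1, 58.2 and 61.9 to 170, 167 and 179 CPM, and in A673 from 49.8, 49.1 and 48.7 to 72.4, 79.3 and 76.3 CPM. The groups were far apart in each line, but the log2 fold change shrank from 2.48 (edgeR adjusted p = 1.51e-22, SE 0.054) in TC-32 to 1.53 (edgeR adjusted p = 7.06e-22, SE 0.048) in TC-71 and 0.63 (edgeR adjusted p = 1.36e-09, SE 0.043) in A673. TC-32 and A673 differed by 1.88 (edgeR adjusted p = 4.61e-22, SE 0.07). IRF9, the DNA-binding partner of STAT2, followed the same order. It rose from 4.94, 3.73 and 3.70 to 16.9, 18.4 and 18.7 CPM in TC-32, a log2 fold change of 2.13 (edgeR adjusted p = 3.65e-15, SE 0.108). TC-71 levels rose from 2.01, 2.08 and 2.39 to 4.58, 4.44 and 4.85 CPM (1.09 on the log2 scale, edgeR adjusted p = 1.96e-07, SE 0.151). A673 levels rose from 11.5 ± 0.552 to 17.3 ± 1.05 CPM (SD, n = 3), a log2 fold change of 0.59 (edgeR adjusted p = 1.83e-07, SE 0.059). IRF9 shares 23.9% of its exon bases with another annotated gene on its own strand, so part of its count is uncertain.

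IRF7 (chromosome 11, 612553 to 615983) broke this order. In TC-71 its siNeg libraries held 3.27, 3.40 and 2.32 CPM and its siFLI1 libraries 14.3, 15.9 and 15.1 CPM, a log2 fold change of 2.35 (edgeR adjusted p = 1.03e-16, SE 0.121). In TC-32 the values were 2.18, 2.75 and 2.90 against 4.98, 6.30 and 4.60 CPM, a log2 fold change of 1.02 (edgeR adjusted p = 3.37e-06, SE 0.162). In A673 the groups overlapped, at 4.04 ± 0.421 and 3.75 ± 0.521 CPM (SD, n = 3), with a log2 fold change of -0.11 (edgeR adjusted p = 0.38, SE 0.107). The effect in TC-32 was 1.33 smaller than in TC-71 (log2 difference -1.33, edgeR adjusted p = 4.9e-06, SE 0.225), and that in A673 was smaller than in TC-71 by 2.49 (log2 difference -2.49, edgeR adjusted p = 7.81e-14, SE 0.18).

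**Figure D4:**
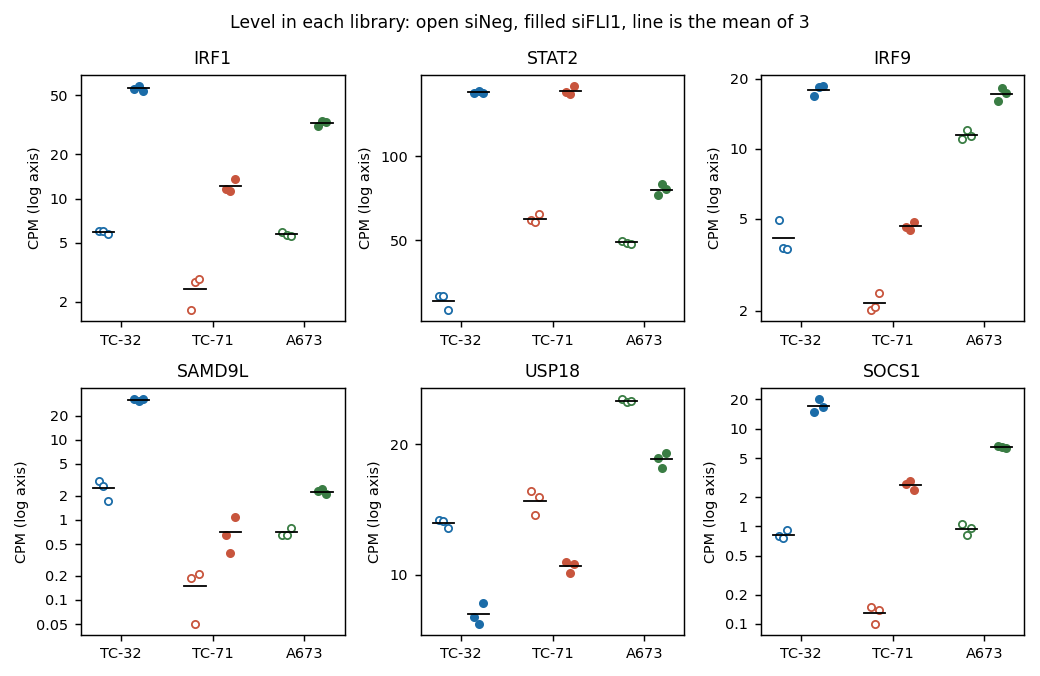
CPM on a log axis in each library of the 3 lines for 5 interferon-stimulated genes and for SOCS1, with open circles for siNeg, filled circles for siFLI1 and a line at the mean of 3. IRF1, STAT2, IRF9, SAMD9L and SOCS1 rise in each line with no overlap, and USP18 falls in each.

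The 2 cytosolic RNA sensors on the list, IFIH1 (MDA5) and DHX58 (LGP2), did not move together. IFIH1 (ENSG00000115267.5, chromosome 2, 162267074 to 162318684), which binds long double-stranded RNA, rose in TC-32 from 5.49, 5.43 and 5.81 to 11.2, 10.0 and 9.51 CPM (log2 fold change 0.88, edgeR adjusted p = 4.77e-08, SE 0.106). It fell in TC-71 from 20.6, 20.7 and 17.0 to 15.4, 14.9 and 15.3 CPM (-0.35 on the log2 scale, edgeR adjusted p = 0.000499, SE 0.084). Levels in A673 rose from 4.72, 4.46 and 4.95 to 6.27, 6.05 and 5.94 CPM (0.37 on the log2 scale, edgeR adjusted p = 0.000246, SE 0.072). Within each line the groups were apart, and TC-71, where the gene fell, had the highest control level. DHX58, which tunes the other sensors, rose in TC-71 from 2.34, 2.38 and 2.39 to 5.16, 4.90 and 4.69 CPM (log2 fold change 1.04, edgeR adjusted p = 2.07e-07, SE 0.145) and rose in TC-32 by 0.81 (edgeR adjusted p = 3.35e-08, SE 0.096). A673 gave no call, at 1.75 ± 0.256 and 1.94 ± 0.216 CPM (SD, n = 3).

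The IFIT genes, whose products bind viral RNA ends and hinder its translation, lie side by side on chromosome 10 (89283694 to 89421605), and all 4 were higher in all 3 lines. IFIT2 stood at 2.39, 2.68 and 2.99 CPM in siNeg libraries of TC-32 and at 20.7, 17.7 and 19.3 CPM in siFLI1 libraries, a log2 fold change of 2.84 (edgeR adjusted p = 2.09e-17, SE 0.112). Levels in TC-71 rose from 15.3, 14.3 and 15.9 to 37.0, 39.1 and 41.9 CPM (1.37 on the log2 scale, edgeR adjusted p = 1.61e-16, SE 0.072). IFIT2 in A673 rose from 5.95 ± 0.693 to 10.1 ± 0.5 CPM (SD, n = 3), a log2 fold change of 0.76 (edgeR adjusted p = 2.85e-07, SE 0.079). IFIT3, which stabilises IFIT1 on RNA, had the same order. It rose from 7.12, 6.71 and 7.15 to 40.5, 36.7 and 35.0 CPM in TC-32 (2.42 on the log2 scale, edgeR adjusted p = 1.17e-18, SE 0.083). In TC-71 it rose from 13.2, 12 and 13.5 to 28.8, 28.0 and 34.7 CPM (1.24 on the log2 scale, edgeR adjusted p = 1.69e-13, SE 0.085), and in A673 by 0.89 (edgeR adjusted p = 4.32e-10, SE 0.055).

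IFIT1, the family member that recognises RNA caps without methylation, rose in TC-32 from 3.1, 3.09 and 2.90 to 8.43, 9.48 and 8.02 CPM (log2 fold change 1.51, edgeR adjusted p = 5.23e-11, SE 0.125). Its rises in TC-71 (0.42, edgeR adjusted p = 6.88e-05, SE 0.085) and A673 (0.69, edgeR adjusted p = 5.85e-07, SE 0.077) stayed under 2-fold. IFIT5, the most abundant of the 4 per kilobase of exon in the siNeg libraries of every line, gave the reverse order. Its log2 fold change was 0.17 in TC-32 (edgeR adjusted p = 0.0308, SE 0.072), 0.36 in TC-71 (edgeR adjusted p = 3.07e-05, SE 0.069) and 0.68 in A673 (edgeR adjusted p = 4.17e-09, SE 0.05). TC-32 and A673 differed by -0.48 (edgeR adjusted p = 3.53e-05, SE 0.094). The call of IFIT5 in TC-32 was lost with DESeq2 (0.18, adjusted p = 0.0529) and without the low-count filter (0.15, edgeR adjusted p = 0.0832). It was also lost when siNeg replicate 2 (0.17) or 3 (0.12) or siFLI1 replicate 1 or 2 (0.14 each) was left out.

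The OAS genes make or mimic the enzyme that turns double-stranded RNA into the signal for RNase L, and OAS1, OAS3 and OAS2 adjoin each other on chromosome 12 (112905856 to 113011723). They split within the cluster. OAS3 (ENSG00000111331.12, chromosome 12, 112938051 to 112976460), the member with the longest protein, was higher in no line. In TC-71 it fell from 14.8, 14.3 and 14.7 to 4.87, 4.32 and 4.71 CPM, a log2 fold change of -1.66 (edgeR adjusted p = 5.13e-15, SE 0.101). In A673 it fell from 117 ± 1.28 to 88.1 ± 5.81 CPM (SD, n = 3), or -0.41 on the log2 scale (edgeR adjusted p = 6.05e-07, SE 0.045). In TC-32 it stood at 54.1 ± 0.894 and 50.2 ± 2.5 CPM (SD, n = 3), a log2 fold change of -0.11 (edgeR adjusted p = 0.0773, SE 0.056). Without siFLI1 replicate 2 of TC-32 it was called lower there (-0.16, edgeR adjusted p = 0.0152).

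OAS2, the neighbour of OAS3, rose from 2.22, 2.37 and 1.60 to 8.09, 6.95 and 6.67 CPM in TC-32 (log2 fold change 1.80, edgeR adjusted p = 1.27e-10, SE 0.155). In A673 it rose from 0.407, 0.5 and 0.632 to 2.06, 2.31 and 1.73 CPM (1.98 on the log2 scale, edgeR adjusted p = 1.79e-08, SE 0.166). These effects differed by -0.16 (edgeR adjusted p = 0.607, SE 0.249), and OAS2 was thus one of 3 members for which no difference between TC-32 and A673 was called. OAS1, on the other side of OAS3, rose in TC-32 from 3.64, 3.69 and 3.91 to 8.81, 8.61 and 8.19 CPM (1.19 on the log2 scale, edgeR adjusted p = 1.18e-09, SE 0.116) and fell in A673 from 20.1, 19.4 and 20.5 to 13.8, 15.9 and 14.7 CPM (-0.44, edgeR adjusted p = 3.46e-06, SE 0.056). Its control level was 20.0 CPM in A673 and 3.75 CPM in TC-32. Each table was scaled on its own, so levels set across lines rest on that scaling. OASL, an OAS relative without the enzyme activity, rose in TC-71 from 5.38, 4.77 and 5.69 to 26.2, 24.4 and 27.1 CPM (2.28 on the log2 scale, edgeR adjusted p = 2.56e-19, SE 0.092). It rose in A673 from 0.482, 0.566 and 0.531 to 1.35, 1.61 and 1.44 CPM (1.48, edgeR adjusted p = 1.32e-07, SE 0.145). In TC-32 its groups overlapped at 1.02 ± 0.135 and 0.917 ± 0.157 CPM (SD, n = 3). The effect of siFLI1 on OASL in TC-32 differed from that in TC-71 by -2.45 (edgeR adjusted p = 4.88e-10, SE 0.257).

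MX1 and MX2, dynamin-like GTPases that trap viral nucleocapsids, lie in tandem on chromosome 21 (41361999 to 41470071) and responded in A673 but were not called in TC-32. MX2 in A673 held 0.00832, 0.0328 and 0.0422 CPM in siNeg libraries and 0.291, 0.361 and 0.280 CPM in siFLI1 libraries, a log2 fold change of 3.44 (edgeR adjusted p = 2.08e-06, SE 0.431) at a very low level. In TC-32 the same gene stood at 68.3, 72.2 and 72.6 CPM without and 79.7, 70.2 and 74.4 CPM with siFLI1, with overlapping groups and a log2 fold change of 0.07 (edgeR adjusted p = 0.226, SE 0.055). The effect in TC-32 differed from that in A673 by -3.29 (edgeR adjusted p = 3.07e-07, SE 0.458). MX1 rose in A673 from 0.823, 0.607 and 1.22 to 1.77, 1.93 and 1.66 CPM (1.02 on the log2 scale, edgeR adjusted p = 0.000132, SE 0.186). In TC-32 it stood at 2.23 ± 0.708 and 2.44 ± 0.162 CPM (SD, n = 3), and its log2 fold change of 0.13 turned to -0.04 without siNeg replicate 1 and to 0.40 without siNeg replicate 3, never called.

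The membrane proteins IFITM1, IFITM2 and IFITM3, which block fusion of viral envelopes, and BST2 (tetherin), which holds budding particles at the surface, were higher in every line with 1 exception. IFITM1 was not called in TC-32, at 25.4 ± 0.468 and 26.2 ± 1.35 CPM (SD, n = 3), a log2 fold change of 0.05 (edgeR adjusted p = 0.516, SE 0.067). TC-71 levels rose from 37.6, 33.9 and 36.4 to 77.0, 75.3 and 72.5 CPM (1.05 on the log2 scale, edgeR adjusted p = 2.25e-16, SE 0.056). In A673 it rose by 0.20 (edgeR adjusted p = 0.00268, SE 0.051), a call lost when libraries were scaled by size alone (0.09, edgeR adjusted p = 0.112). IFITM2 rose most in A673, from 5.30, 4.48 and 4.72 to 15.1, 17.5 and 17.6 CPM (1.79 on the log2 scale, edgeR adjusted p = 3.27e-12, SE 0.077). In TC-32 it rose from 5.74, 5.65 and 4.42 to 11.3, 12.5 and 11.2 CPM (1.15, edgeR adjusted p = 8.64e-10, SE 0.11), and in TC-71 by 0.77 (edgeR adjusted p = 4.04e-13, SE 0.056). IFITM3, the most abundant member per kilobase, rose by 0.40 in TC-32 (edgeR adjusted p = 3.87e-08, SE 0.048), 0.81 in TC-71 (edgeR adjusted p = 1.01e-16, SE 0.041) and 0.89 in A673 (edgeR adjusted p = 2.2e-10, SE 0.053). Its mean level in TC-71 went from 223 ± 5.07 to 389 ± 11.1 CPM (SD, n = 3).

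The 3 IFITM genes lie within 25.8 kb of chromosome 11 (303655 to 329475) and resemble each other. Of their 50-base stretches, 34.97% in IFITM1, 21.7% in IFITM2 and 30.83% in IFITM3 also occur in another gene, mainly within the family. How counts were divided among them is therefore uncertain. BST2 rose in TC-32 from 22.9, 22 and 24.7 to 49, 59.0 and 56.9 CPM (1.25 on the log2 scale, edgeR adjusted p = 9.14e-14, SE 0.072). Levels in TC-71 rose from 4.20, 3.85 and 4.20 to 8.59, 8.64 and 9.46 CPM (1.12, edgeR adjusted p = 5.9e-10, SE 0.114). Its smaller rise in A673 (0.29, edgeR adjusted p = 0.00525, SE 0.082) was not called with size scaling alone (0.18, edgeR adjusted p = 0.0547) and turned to -0.10 when libraries were thinned to equal depth (edgeR adjusted p = 0.57).

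The ISG15 system held calls in both directions. ISG15 (ENSG00000187608.8, chromosome 1, 1001138 to 1014540) is the ubiquitin-like protein itself, HERC5 its main ligase in human cells, HERC6 the neighbour and relative of HERC5, and USP18 the protease that removes ISG15. ISG15 stood at 24.4, 25.3 and 28.7 CPM in siNeg libraries of TC-32 and at 28.1, 37.7 and 31.1 CPM in siFLI1 libraries, a called rise of 0.31 on the log2 scale (edgeR adjusted p = 0.00722, SE 0.096) although the groups overlapped. Without siFLI1 replicate 2 that rise was 0.18 (edgeR adjusted p = 0.0319). TC-71 levels rose from 27.3, 28.9 and 27.2 to 43.6, 40.4 and 36.4 CPM (0.53, edgeR adjusted p = 6.6e-08, SE 0.068). In A673 it fell from 9.69, 8.70 and 9.20 to 6.72, 8.50 and 8 CPM (-0.25, edgeR adjusted p = 0.0119, SE 0.081), by a narrow gap. The call in A673 was lost without siNeg replicate 1 (-0.21, edgeR adjusted p = 0.069) and with libraries thinned to equal depth (-0.14, edgeR adjusted p = 0.265), and without siFLI1 replicate 1 the value was -0.15 (edgeR adjusted p = 0.0469).

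HERC6 rose in TC-32 from 0.754, 0.678 and 0.884 to 5.14, 4.99 and 5.45 CPM (2.75 on the log2 scale, edgeR adjusted p = 1.79e-12, SE 0.191). A673 levels rose from 0.333, 0.205 and 0.329 to 0.977, 1.05 and 0.787 CPM (1.70, edgeR adjusted p = 2.39e-06, SE 0.213), and those in TC-71 rose by 0.63 (edgeR adjusted p = 3.39e-05, SE 0.121). HERC5, next to it on chromosome 4 (88457119 to 88506163), was higher in no line. It fell in TC-71 from 22.5 ± 1.73 to 19.1 ± 0.926 CPM (SD, n = 3), or -0.23 on the log2 scale (edgeR adjusted p = 0.00979, SE 0.077), a call lost without siFLI1 replicate 2 (-0.19, edgeR adjusted p = 0.0586). In TC-32 its siNeg libraries spread from 0.335 to 1.06 CPM around siFLI1 libraries of 0.651 to 0.832, and the log2 fold change of 0.01 ranged from -0.34 to 0.35 as single libraries were left out. No call was made for it in A673 (-0.48, edgeR adjusted p = 0.132, SE 0.276), except that it was lower without siNeg replicate 1 (-0.68, edgeR adjusted p = 0.0443) or siFLI1 replicate 1 (-0.76, edgeR adjusted p = 0.016).

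USP18 (ENSG00000184979.9, chromosome 22, 18150118 to 18177397) was the one member lower in all 3 lines. Its siNeg libraries held 13.4, 13.3 and 12.8 CPM in TC-32 and its siFLI1 libraries 8.01, 7.72 and 8.63 CPM, a log2 fold change of -0.70 (edgeR adjusted p = 1.54e-07, SE 0.09). In TC-71 it fell from 15.6, 13.7 and 15.1 to 10.7, 10.1 and 10.6 CPM (-0.50, edgeR adjusted p = 8.63e-06, SE 0.088), and in A673 from 25.4, 25 and 25.1 to 18.6, 17.6 and 19.1 CPM (-0.45, edgeR adjusted p = 3.9e-07, SE 0.048). No siFLI1 library reached the lowest siNeg library of its line, and the falls in A673 and TC-71 differed by 0.02 (edgeR adjusted p = 0.899, SE 0.095). USP18 shares 23.15% of its 50-base stretches with other genes, among them the pseudogene USP41. USP41 held at most 0.405 CPM in any library and was tested only in A673, where it was lower (log2 fold change -1.01, edgeR adjusted p = 0.00433, SE 0.282).

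Among enzymes of nucleotides and RNA, RSAD2 (viperin), which makes a chain-terminating nucleotide, was higher in all lines. It stood at 0.126, 0.565 and 0.210 CPM in siNeg libraries of TC-32 and at 4.02, 5.02 and 4.03 CPM in siFLI1 libraries (log2 fold change 3.80, edgeR adjusted p = 4.57e-11, SE 0.299). Without siNeg replicate 2 the value was 4.66. TC-71 levels rose from 0.706, 0.760 and 1.11 to 3.52, 3.25 and 5.15 CPM (2.21, edgeR adjusted p = 1.09e-09, SE 0.226). Levels in A673 rose from 1.65 ± 0.118 to 2.59 ± 0.305 CPM (SD, n = 3), or 0.65 on the log2 scale (edgeR adjusted p = 8.25e-05, SE 0.113), a call lost at equal depth (0.28, edgeR adjusted p = 0.219). CMPK2, a mitochondrial nucleotide kinase encoded head to head with RSAD2 on chromosome 2 (6840570 to 6898239), did not follow it. CMPK2 rose in TC-32 from 0.963, 1.21 and 0.884 to 2.99, 2.82 and 2.00 CPM (1.34, edgeR adjusted p = 1.24e-05, SE 0.234) and fell in A673 from 5.67, 6.49 and 5.54 to 4.82, 4.31 and 4.51 CPM (-0.38, edgeR adjusted p = 0.000633, SE 0.081). In TC-71 it was not called (0.26, edgeR adjusted p = 0.144, SE 0.159). ISG20, an exonuclease of single-stranded RNA, rose in TC-32 from 0.670, 1.17 and 1.22 to 3.26, 3.45 and 3.32 CPM (1.70, edgeR adjusted p = 1.56e-07, SE 0.221). Its rise in TC-71 (0.43, edgeR adjusted p = 0.0152, SE 0.155) was lost without siFLI1 replicate 1 (0.36) or 2 (0.38). In A673 it was not called (0.44, edgeR adjusted p = 0.073, SE 0.209), but was without siFLI1 replicate 3 (0.65, edgeR adjusted p = 0.00697).

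PARP9 and PARP14, members of the PARP family that act with interferon signalling, are neighbours on chromosome 3 (122527924 to 122730840) and had the same calls in each line. PARP9 in TC-71 rose from 7.95, 8.36 and 7.22 to 27.1, 25.1 and 29.1 CPM (1.80 on the log2 scale, edgeR adjusted p = 2.39e-17, SE 0.087). In TC-32 it rose by 0.67 (edgeR adjusted p = 3.22e-08, SE 0.078), and in A673 it was not called (0.11, edgeR adjusted p = 0.0681, SE 0.052) except without siFLI1 replicate 2 (0.15, edgeR adjusted p = 0.0169). PARP14 in TC-71 rose from 28.9, 31.5 and 30.4 to 72.8, 81.5 and 93.0 CPM (1.45, edgeR adjusted p = 7.19e-15, SE 0.072), and in TC-32 from 63.4, 65.2 and 60.1 to 129, 125 and 126 CPM (1.01, edgeR adjusted p = 1.38e-15, SE 0.049). In A673 it stood at 83.8 ± 2.99 and 82.8 ± 3.99 CPM (SD, n = 3), a log2 fold change of -0.02 (edgeR adjusted p = 0.737, SE 0.044), which size scaling alone turned into a call of -0.12 (edgeR adjusted p = 0.023). For both genes the effect in A673 was below that in TC-71, by -1.72 for PARP9 (edgeR adjusted p = 5.14e-16, SE 0.103) and -1.50 for PARP14 (edgeR adjusted p = 6.82e-16, SE 0.087).

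SAMD9L and SAMD9, paralogs on chromosome 7 (93099513 to 93148385) that restrain translation and poxviruses, differed in reach. SAMD9L stood at 3.1, 2.68 and 1.73 CPM in siNeg libraries of TC-32 and at 32.4, 31.0 and 32.4 CPM in siFLI1 libraries (log2 fold change 3.67, edgeR adjusted p = 1.22e-18, SE 0.116). Levels in TC-71 rose from 0.186, 0.0507 and 0.208 to 0.655, 0.382 and 1.10 CPM (2.21, edgeR adjusted p = 0.000237, SE 0.501), and in A673 from 0.649, 0.648 and 0.801 to 2.27, 2.43 and 2.09 CPM (1.69, edgeR adjusted p = 6.44e-09, SE 0.13). The groups were apart in each line, with a wide spread in TC-71 where counts were few. SAMD9 rose in TC-32 from 4.27, 4.07 and 4.88 to 20.3, 18 and 17.4 CPM (2.07, edgeR adjusted p = 2.31e-15, SE 0.103) and in TC-71 by 0.83 (edgeR adjusted p = 4.61e-06, SE 0.139). A673 gave no call, at 2.12 ± 0.242 and 2.15 ± 0.292 CPM (SD, n = 3). TRIM22, a RING-type ligase that restricts several viruses, rose in TC-32 from 17.3, 19.4 and 18.5 to 63.5, 61.7 and 62.0 CPM (1.76, edgeR adjusted p = 2.67e-18, SE 0.063). In A673 its groups overlapped at 0.507, 0.451 and 0.624 against 0.951, 0.721 and 0.595 CPM, and the called rise of 0.52 (edgeR adjusted p = 0.0327, SE 0.205) was lost with DESeq2 (0.53, adjusted p = 0.0591), at equal depth (0.15, edgeR adjusted p = 0.742), with size scaling alone (0.42, edgeR adjusted p = 0.0799) and without siNeg replicate 1 (0.50) or 2 (0.42) or siFLI1 replicate 1 (0.33).

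IFI44L, whose product dampens antiviral signalling, passed the filter in TC-32 through its siFLI1 libraries alone. It had 6 counts over the 3 siNeg libraries of TC-32 and 315 over the 3 siFLI1 libraries, or 0.0837, 0.0754 and 0.0842 against 3.79, 3.98 and 2.77 CPM. The ratio was 43.6 with an exact 95% interval of 19.8 to 120 that covers counting error only, and the fitted log2 fold change was 5.37 (edgeR adjusted p = 5.39e-13, SE 0.355). In TC-71 it rose from 2.93, 3.40 and 2.6 to 7.12, 6.46 and 8.24 CPM (1.32, edgeR adjusted p = 1.03e-09, SE 0.138), and in A673 by 0.65 (edgeR adjusted p = 4.1e-08, SE 0.058). IFI44, its paralog and neighbour on chromosome 1 (78649796 to 78664078), rose in TC-32 from 0.335, 0.226 and 0.210 to 2.64, 2.11 and 1.73 CPM (3.05, edgeR adjusted p = 4.87e-09, SE 0.323) and fell in A673 from 18.2, 20.1 and 19.4 to 16.3, 15.1 and 15.1 CPM (-0.31, edgeR adjusted p = 9.44e-05, SE 0.055). In TC-71, with 35.0 ± 2.01 and 31.9 ± 2.46 CPM (SD, n = 3), it was not called (-0.12, edgeR adjusted p = 0.103) but was lower without siNeg replicate 3 (-0.18) or siFLI1 replicate 3 (-0.19). Of the 3 lines, TC-32 had the lowest control level of IFI44 and the only called rise.

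XAF1, a partner of the apoptosis inhibitor XIAP, rose in TC-32 from 0.419, 0.490 and 0.884 to 11, 10.5 and 11.6 CPM (4.20 on the log2 scale, edgeR adjusted p = 9.41e-17, SE 0.179). In A673 it rose from 0.366, 0.336 and 0.363 to 1.03, 1.03 and 1.14 CPM (1.58, edgeR adjusted p = 2.67e-07, SE 0.165). It overlaps PRAL of the opposite strand over 38.3% of its exon bases. EPSTI1, named for an interaction of epithelium and stroma, rose in TC-32 from 0.377, 0.339 and 0.295 to 4.87, 3.95 and 3.01 CPM (3.53, edgeR adjusted p = 1.49e-11, SE 0.274) and in A673 from 0.740, 0.812 and 0.826 to 2.40, 2.28 and 2.08 CPM (1.51, edgeR adjusted p = 1.06e-08, SE 0.12). Both genes separated the groups fully in these lines.

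IFI27, a mitochondrial and nuclear-envelope protein used as a blood marker of interferon, rose in TC-32 from 0.502, 0.565 and 0.463 to 1.23, 1.51 and 1.73 CPM (1.54, edgeR adjusted p = 3.65e-05, SE 0.292). A673 levels rose from 0.782, 0.976 and 0.734 to 1.25, 1.63 and 1.39 CPM (0.78, edgeR adjusted p = 0.00024, SE 0.151), a call lost at equal depth (0.53, edgeR adjusted p = 0.0808). TC-71 levels fell from 2.6, 3.24 and 3.19 to 1.47, 1.38 and 1.78 CPM (-0.94, edgeR adjusted p = 5.95e-05, SE 0.188). IFI6, a mitochondrial relative of IFI27, rose in TC-32 from 6.20, 5.5 and 6.57 to 17.9, 20.3 and 19.2 CPM (1.66, edgeR adjusted p = 4.23e-14, SE 0.095). In TC-71 its log2 fold change was -0.17 (edgeR adjusted p = 0.0746, SE 0.087), called lower without siNeg replicate 2 (-0.25) or siFLI1 replicate 1 (-0.23). In A673 it was 0.15 (edgeR adjusted p = 0.0981, SE 0.077), called higher without siNeg replicate 3 (0.24). IFI6 shares 23.1% of its exon bases with LINC02574 on its own strand, so part of its count is uncertain too. IFI35 rose by 0.81 in TC-32 (edgeR adjusted p = 2.63e-08, SE 0.094) and 0.49 in TC-71 (edgeR adjusted p = 0.00107, SE 0.127). No call was made for it in A673 (0.10, edgeR adjusted p = 0.239), except without siFLI1 replicate 1 (0.18, edgeR adjusted p = 0.00754).

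The members not tested in TC-71 had few counts there. XAF1 had 1 count over the 3 siNeg libraries and 72 over the 3 siFLI1 libraries, a ratio of 62.0 (exact 95% interval 10.8 to 2480, counting error only). OAS2 had 1 and 15 counts (ratio 12.9, interval 1.99 to 543) and MX1 had 5 and 27 (ratio 4.65, interval 1.76 to 15.5). MX2 had 0 and 13 counts, at least 3.73-fold higher against a floor of 3 counts over the group, and TRIM22 had 0 and 7, at least 2.01-fold higher. OAS1 stood at 0.149, 0.0507 and 0.139 CPM in siNeg libraries and at 0.327, 0.382 and 0.647 CPM in siFLI1 libraries, and EPSTI1 was at 0 in 5 of the 6 libraries. In MX2, 12 of the 13 counts came from siFLI1 replicate 3.

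The effect of siFLI1 itself was compared between lines by interaction contrasts. For TC-32 against A673, 36 of the 39 members differed (92.3%, beside 62.1% of 19610 genes), and the signed log2 fold change was the more positive in TC-32 for 29 and in A673 for 7, whether the gene rose or fell. All genes that differed split into 5858 and 6321 in the same order. For TC-32 against TC-71, 26 differed (66.7%, beside 53.6%), 18 with the more positive value in TC-32 and 8 in TC-71. Here all genes that differed split into 4093 and 6411. For A673 against TC-71, 27 differed (69.2%, beside 51.6%), 7 with the more positive value in A673 and 20 in TC-71. The split of all genes that differed was 4553 and 5570. OAS3, which fell furthest in TC-71, counts on the side of the other line in both TC-71 pairs. Among the 32 members tested in TC-71, the counts were 24 for each of the latter pairs of lines. The median log2 difference of the members was 0.99, 0.37 and -0.67 for the 3 pairs in this order, where the median of all genes was 0.015, -0.11 and -0.07. Of the 32 members with a fold change in all 3 lines, the most positive value was in TC-32 for 21, in TC-71 for 7 and in A673 for 4. This last split was not computed over all genes.

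The same contrasts give the size of the difference for members called in opposite directions. These members were picked by their calls in the same libraries, so the p-values below are no separate support. Between TC-32 and A673, the effect differed by 3.39 for IFI44 (edgeR adjusted p = 1.21e-12, SE 0.283), 1.74 for CMPK2 (edgeR adjusted p = 1.64e-08, SE 0.22), 1.65 for OAS1 (edgeR adjusted p = 2.67e-13, SE 0.129) and 0.59 for ISG15 (edgeR adjusted p = 0.000228, SE 0.128). Between TC-32 and TC-71 it differed by 2.48 for IFI27 (edgeR adjusted p = 5.83e-08, SE 0.327) and 1.22 for IFIH1 (edgeR adjusted p = 6.53e-10, SE 0.13). Between A673 and TC-71 it differed by 1.68 for IFI27 (edgeR adjusted p = 5.6e-07, SE 0.248), 0.69 for IFIH1 (edgeR adjusted p = 3.51e-06, SE 0.112) and -0.81 for ISG15 (edgeR adjusted p = 4.02e-06, SE 0.126). Each line enters 2 of the 3 pairs with the same 6 libraries, so the pairs are not independent of each other.

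Chromosome neighbours gave a further view of gene specificity. Of 9 pairs or clusters of adjacent members, the IFIT, IFITM, PARP, MX and SAMD9 genes held no opposite calls within a line. Opposite calls within a line were found for OAS3 and OAS2 in A673, OAS1 and OAS2 in A673, HERC5 and HERC6 in TC-71, IFI44 and IFI44L in A673, and CMPK2 and RSAD2 in A673. In each of these the member that fell had the higher mean CPM per kilobase of exon in the siNeg libraries of that line, such as 9.44 for IFI44 and 0.64 for IFI44L in A673. The siNeg libraries enter both the level and the change. Between lines, a fall did not always go with a high control level. OAS3 fell furthest in TC-71 and ISG15 was called lower only in A673, each the line with its lowest siNeg level.

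**Figure D5:**
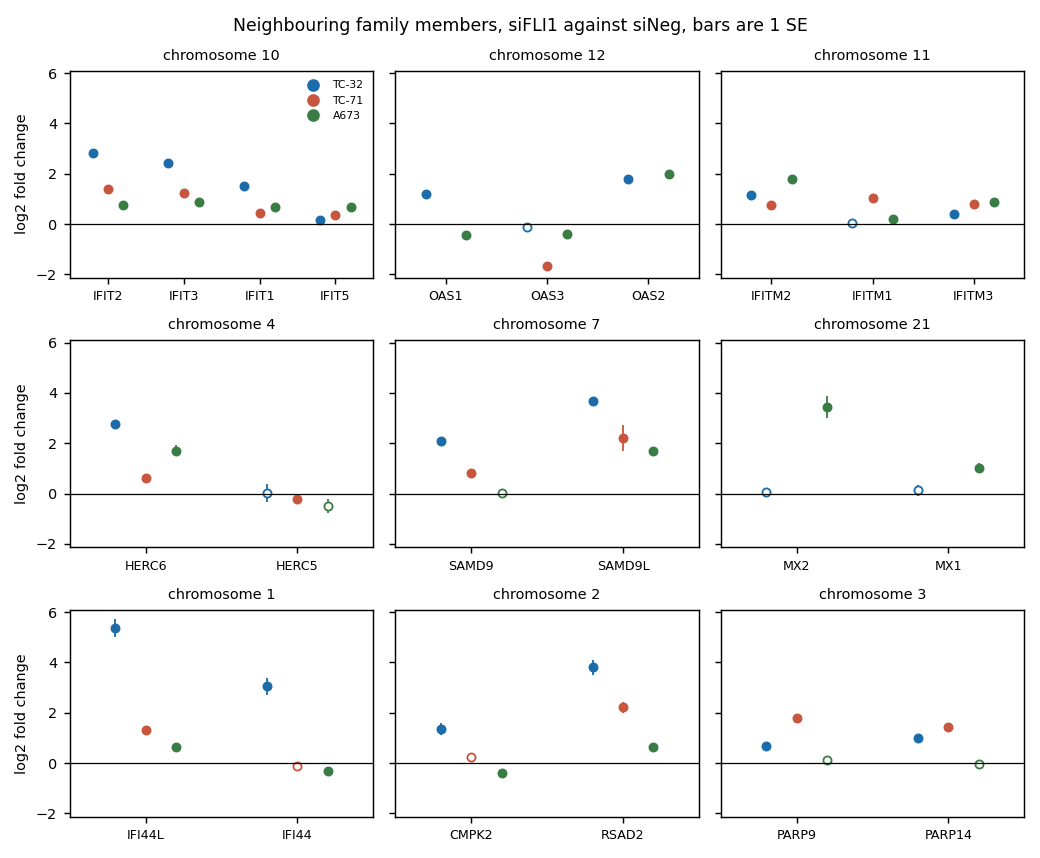
Log2 fold change of siFLI1 against siNeg (bars of 1 SE) for members adjacent on a chromosome, by line, with open points where a gene was not called and no point where it was not tested. OAS3 lies below 0 in each line between OAS1 and OAS2, and HERC5 lies near or below 0 beside HERC6.

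The wider pathway was read from 43 genes that are not members. All 11 interferon genes listed, of types I, II and III, were below the filter in every line, with at most 4 counts in any of the 18 libraries, and none could be tested. Of the other 32 genes, 30 were tested in each line. In TC-32, 21 of these 30 were higher and 4 lower (70.0% and 13.3%, beside 41.3% and 40.1% of all genes tested). In TC-71, 18 were higher and 7 lower (60.0% and 23.3%, beside 36.8% and 35%). In A673, 14 were higher and 9 lower (46.7% and 30.0%, beside 35.6% and 35.4%), which is nearer to the shares of all genes. These counts include IRF5 in TC-32 and SOCS1 and TLR3 in TC-71, which reached the test only through their siFLI1 libraries. Of the 6 receptor subunits, 5 were higher in each line, all but IFNLR1. IFNGR1, the ligand-binding chain for interferon-gamma, rose in TC-32 from 29.5, 31.5 and 29 to 85.5, 77.4 and 81.3 CPM (1.44 on the log2 scale, edgeR adjusted p = 4.4e-17, SE 0.059), in TC-71 by 0.63 (edgeR adjusted p = 1.37e-08, SE 0.075) and in A673 by 0.72 (edgeR adjusted p = 6.8e-10, SE 0.047). IFNGR2, its partner chain, rose by 0.58, 1.02 and 0.95 in the 3 lines, and IFNAR1 of the type I receptor by 0.57, 0.38 and 0.44.

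Downstream of the receptors, JAK1 was lower in every line, at -0.84 in TC-32 (edgeR adjusted p = 9.82e-16, SE 0.04), -0.24 in TC-71 (edgeR adjusted p = 2.07e-06, SE 0.038) and -0.68 in A673 (edgeR adjusted p = 4.06e-11, SE 0.035). STAT3 rose by 1.15, 0.76 and 0.39. SOCS1, which shuts off JAK kinases, rose in each line, and in TC-71 only its siFLI1 libraries were above the filter's cutoff. It stood at 0.796, 0.754 and 0.926 CPM in siNeg libraries of TC-32 and at 15.0, 20.2 and 16.8 CPM in siFLI1 libraries (log2 fold change 4.4, edgeR adjusted p = 4.77e-18, SE 0.158). TC-71 levels rose from 0.149, 0.101 and 0.139 to 2.7, 2.95 and 2.37 CPM (4.28, edgeR adjusted p = 1.12e-12, SE 0.331), and A673 levels from 1.06, 0.812 and 0.970 to 6.61, 6.56 and 6.32 CPM (2.77, edgeR adjusted p = 4.02e-13, SE 0.101). SOCS3, a brake on STAT3, rose by 1.27 (edgeR adjusted p = 4.47e-10, SE 0.108), 3.1 (edgeR adjusted p = 9.14e-22, SE 0.099) and 1.76 (edgeR adjusted p = 1.55e-14, SE 0.05).

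Of 16 listed genes that sense nucleic acid and induce interferon, 14 were tested per line. In TC-32, 10 were higher and 1 lower (71.4% and 7.14%, beside the 41.3% and 40.1% of all genes given above). In TC-71, 6 were higher and 4 lower (42.9% and 28.6%), which is near the 36.8% and 35% of all genes. In A673, 4 were higher and 7 lower (28.6% and 50%, beside 35.6% and 35.4%). IRF5 in TC-32 and TLR3 in TC-71, both counted as higher, were tested only through their siFLI1 libraries. DDX58 (RIG-I), the sensor of RNA ends, rose by 1.35 in TC-32 (edgeR adjusted p = 1.88e-12, SE 0.093), 0.36 in TC-71 (edgeR adjusted p = 0.00227, SE 0.102) and 0.63 in A673 (edgeR adjusted p = 2.27e-08, SE 0.053). Without siFLI1 replicate 3 the call of DDX58 in TC-71 was lost (0.23, edgeR adjusted p = 0.0536). DDX58 shares 43.2% of its exon bases with another annotated gene on its own strand, so part of its count is uncertain. TMEM173 (STING), the adaptor of DNA sensing, rose in TC-32 from 27.9, 30.0 and 31.4 to 143, 147 and 143 CPM (2.28, edgeR adjusted p = 7.97e-22, SE 0.054) and in TC-71 by 0.95 (edgeR adjusted p = 3.43e-16, SE 0.052). In A673 it was not called (0.08, edgeR adjusted p = 0.22, SE 0.054), but was without siFLI1 replicate 1 (0.15, edgeR adjusted p = 0.00118). TLR3, the endosomal receptor of double-stranded RNA, rose by 1.05 in TC-32 (edgeR adjusted p = 4.04e-09, SE 0.11). In TC-71 it rose by 1.35 (edgeR adjusted p = 0.00809, SE 0.45), where only its siFLI1 libraries were above the filter's cutoff. TLR3 fell in A673 (log2 fold change -0.42, edgeR adjusted p = 0.000951, SE 0.094), a call lost at equal depth (-0.32, edgeR adjusted p = 0.0696).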

How the data were processed

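Stranded mRNA libraries were sequenced from the 3 cell lines, and 1 gene table per line was used. The authors deposited expected counts per gene for TC-32 and A673 (RSEM, by the table names) and whole-number counts for TC-71 (Subread, by the table name). The submitters' processing notes name GRCh38, cutadapt 4.4, STAR 2.7.3, featureCounts and Subread 2.0.3; the RSEM version, annotation release and strand setting are not given in the sources used here. No column was left unmapped.

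Expected counts were rounded. Each line was fitted in R 4.3.3 with edgeR 4.0.16 (filterByExpr, TMM, robust quasi-likelihood test of 3 siFLI1 against 3 siNeg libraries), and differences between lines were fitted over all 18 libraries with 6 group means. Adjustment was by Benjamini-Hochberg across every gene tested, with calls at 0.05. Log2 fold changes used a prior count of 0.125, and the SE is the unshrunk log2 fold change divided by the root of F. CPM is TMM-scaled and SD is over 3 libraries. Totals set the precision, with TC-32 and TC-71 alike and A673 deeper, and ratios of low counts carry exact 95% intervals. The code was tested on simulated data.

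Alternatives were other scalings, filters, DESeq2 1.42.0, limma 3.58.1, unrounded counts, equal depth, a replicate block and each library left out. Members, lists and tests were chosen with earlier results of these data known. All 39 members are named by symbol. Values per library are given for members called with at least a 2-fold change in at least 1 line or called in opposite directions. ES-5838 cells and siERG were not analysed here.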

Additional observations from a re-analysis of the deposited data

Results flagged for a closer look

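Many members responded to siFLI1 differently from line to line, by edgeR interaction contrasts at an adjusted p under 0.05. The counts were 36 of 39 for TC-32 against A673 (92.3%, beside 62.1% of all genes), 26 for TC-32 against TC-71 (66.7%, beside 53.6%) and 27 for A673 against TC-71 (69.2%, beside 51.6%). Over the 32 members tested in TC-71, they were 24 for each pair with TC-71. Members called in opposite directions in 2 lines were also set apart, a choice that rests on the same libraries as the contrasts. Between TC-32 and A673 the log2 difference of the effect was 1.74 for CMPK2, 3.39 for IFI44, 0.59 for ISG15 and 1.65 for OAS1. Between TC-32 and TC-71 it was 2.48 for IFI27 and 1.22 for IFIH1. Between A673 and TC-71 it was 1.68 for IFI27, 0.69 for IFIH1 and -0.81 for ISG15. A673 also differs from the others in medium and depth, and TC-71 from the others in counting method. In the pairs where these differ, their part cannot be told apart from that of the line.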

How the results depend on the processing

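Over all alternatives, members called higher numbered 31 to 32 in TC-32, 23 to 29 in TC-71 and 19 to 25 in A673, and members called lower 1 to 2, 4 to 6 and 5 to 7. Members whose effect differed numbered 34 to 37 for TC-32 against A673, 25 to 28 for TC-32 against TC-71 and 23 to 28 for A673 against TC-71. With single libraries left out, the count called lower in TC-32 ranged from 1 to 2, the second being OAS3. Values of genes that were not called changed sign in TC-32 for HERC5 (-0.006 without the low-count filter, -0.34 to 0.35 with a library left out) and MX1 (-0.04 to 0.4). In A673 they did so for IRF7 (-0.19 to 0.007), PARP14 (0.0037 at equal depth, -0.05 to 0.0077 with a library left out) and SAMD9 (-0.08 with library size alone, -0.06 to 0.13 with a library left out). With library size alone, IFI35 went to -0.0062 and TMEM173 to -0.03 in A673. BST2 in A673 was the one called gene to change sign (-0.10 at equal depth). The cause of these changes was not tested. Library size alone moved the median of all genes in A673 to -0.11, with 5488 genes higher and 7929 lower where the TMM scaling gave 6565 and 6531.

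Same-numbered libraries did not deviate together, so the numbers were not taken to pair them. The correlations were 0.063, -0.250 and -0.054 in TC-32, 0.091, 0.056 and -0.282 in TC-71, and -0.530, -0.434 and -0.082 in A673. With the replicate block, 32, 24 and 24 members were higher and 1, 5 and 6 lower in the 3 lines in the same order, and 35, 27 and 25 differed between lines. The 7 members not tested in TC-71 did not reach a cutoff of 0.375 CPM in 3 libraries there, a value close to the 0.382 CPM of TC-32 and above the 0.0846 CPM of the more deeply sequenced A673.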
